A study of Mus musculus with 12 samples.

Results

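Lymphotoxin, LIGHT and tumour necrosis factor (TNF) form a small group of related cytokines that share receptors. The 8 genes described here are its ligands Lta, Ltb, Tnf and Tnfsf14 and its receptors Ltbr, Tnfrsf14, Tnfrsf1a and Tnfrsf1b. They form a named set that was drawn up with earlier results of these data known, and all 8 were found among the 23329 genes of the count tables. Spleen and duodenum RNA was sequenced from wild type C57BL/6J mice aged 2 months. Some mice received AC H6, an antibody that activates the lymphotoxin beta receptor (LTbR, the product of Ltbr), and the others an isotype control antibody. The dose was 100 ul at 1 mg/ml for each mouse, and the tissues stand for 24 h of treatment. There were 3 libraries in each of 4 groups (duodenum AC H6, duodenum isotype, spleen AC H6, spleen isotype), 12 libraries in all. Whether the libraries of a group stand for different mice is not stated in the labels, so a p-value here reflects library-to-library spread, which may be technical.

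Lymphotoxin alpha, the product of Lta, is secreted as a soluble trimer that binds the TNF receptors, or is held at the membrane by lymphotoxin beta, the product of Ltb, in a mixed trimer that binds LTbR. LIGHT, the product of Tnfsf14, also binds LTbR, and in addition the herpesvirus entry mediator HVEM, the product of Tnfrsf14. LTbR sits on stromal, epithelial and myeloid cells, and its ligands on lymphocytes; signalling from it is needed for lymph nodes, Peyer's patches and the ordered white pulp of the spleen. TNF receptor 1 (Tnfrsf1a) carries a death domain and is made by most cells, while TNF receptor 2 (Tnfrsf1b) binds TRAF adaptors directly and is found mostly on immune and endothelial cells.

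Of the 8 genes, Ltb, Tnfrsf1b and Tnf rose in the duodenum after AC H6, and edgeR called none in the spleen. The sequences before these 3 genes are shown because edgeR called them higher in the duodenum. For Tnf this call held in only 1 of 6 fits without 1 library. The difference of the Tnf response between the tissues was not called by edgeR (adjusted p = 0.0976), but was by DESeq2 (adjusted p = 0.0436). The sequences are from RefSeq on GRCm38.p6, written 5′ to 3′ on the strand of the gene. Each ends at the base before the annotated gene, and capitals mark motif matches. The Ltb stretch is chr17:35194257-35194438 (plus strand), the Tnf stretch chr17:35202008-35202257 (minus strand) and the Tnfrsf1b stretch chr4:145246871-145247120 (minus strand).
Ltb: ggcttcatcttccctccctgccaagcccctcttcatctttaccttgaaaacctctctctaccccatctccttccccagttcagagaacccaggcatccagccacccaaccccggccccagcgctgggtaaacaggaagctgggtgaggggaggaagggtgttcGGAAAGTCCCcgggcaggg
Tnf: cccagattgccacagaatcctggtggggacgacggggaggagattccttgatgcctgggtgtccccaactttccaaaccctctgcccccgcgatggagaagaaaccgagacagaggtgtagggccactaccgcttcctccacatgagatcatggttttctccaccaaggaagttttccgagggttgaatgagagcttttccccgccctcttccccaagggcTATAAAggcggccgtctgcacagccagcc
Tnfrsf1b: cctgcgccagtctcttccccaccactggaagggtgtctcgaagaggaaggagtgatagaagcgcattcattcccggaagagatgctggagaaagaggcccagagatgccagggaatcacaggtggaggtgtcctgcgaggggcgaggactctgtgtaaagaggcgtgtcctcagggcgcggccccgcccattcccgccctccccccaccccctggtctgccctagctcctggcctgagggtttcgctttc

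The 250 bases before the RefSeq start site of each of the 8 genes were searched for the consensus NF-kB site (kB site, both strands) and for TATAAA (gene strand). The capitals in Ltb are a kB match at positions -87 to -78 from its start site, and those in Tnf are TATAAA at positions -29 to -24. Tnfrsf1b held neither. Among the other 5 genes, Lta held TATAAA at positions -167 to -162 and the other 4 held neither motif. A kB match stood in 7.25% of 32851 mouse promoters of the same length and TATAAA in 7.59%. These matches describe letters and are no evidence of binding.

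On GRCm38 (GENCODE M21), Ltb (chromosome 17, 35194439 to 35196320, plus strand), Tnf (35199381 to 35202007, minus strand) and Lta (35203165 to 35205351, minus strand) lie side by side in the class III region of the MHC, 3060 bases between Ltb and Tnf and 1157 between Tnf and Lta. Tnfsf14 lies on the same chromosome at 57189492 to 57194177, minus strand. Ltbr (chromosome 6, 125306571 to 125313885, minus strand) and Tnfrsf1a (125349362 to 125362484, plus strand) flank Scnn1a, a subunit of the epithelial sodium channel. Tnfrsf14 (154921933 to 154928563) and Tnfrsf1b (145213463 to 145246870) are both on the minus strand of chromosome 4. No member shared an exon base with another gene, and no other gene's counts came within 1% of a member's in all libraries. The library kit does not mark strand, and Plekhg6 lies 175 bases from Tnfrsf1a on the opposite strand.

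Total counts per library ran from 13874091 to 45847467. Haemoglobin genes held 15.7% to 28.3% of the counts in spleen AC H6 libraries, against 7.59% to 19.0% in spleen isotype libraries. Amylase 2 genes of the pancreas held 8.64% of duodenum AC H6 library 3 and 2.13% of duodenum isotype library 2, and the ribosomal precursor Rn45s 7.56% of duodenum isotype library 1. The summed level of 7 enterocyte markers was 25280 CPM or more in every duodenum library and 37.8 CPM or less in every spleen library, and that of 8 B cell markers was 13.4 CPM or less in duodenum and 2326 CPM or more in spleen. CPM values are counts scaled to library size with TMM factors. The extraction text in the labels speaks of brain; 7 brain markers summed to 44.4 to 81.7 CPM, with 2 or 3 of them at 0 in each library.

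Baseline levels of the group were divided between the tissues: the receptors Ltbr and Tnfrsf1a were higher in the duodenum, and all 4 ligands were far lower there than in the spleen. Levels of different genes were set side by side per exon length, as RPKM (CPM divided by exon length in kb). In the duodenum under isotype, Tnfrsf1a had 68.2 ± 3.04 RPKM and Ltbr 66.7 ± 1.92 RPKM (SD, n = 3), ranks 1 and 2 among 28 receptor genes of the TNF family. Their libraries overlapped, so the order of these neighbours was not beyond their spread. Tnfrsf14 followed with 9.57 ± 0.372 RPKM, Tnfrsf1b with 4.67 ± 0.535 RPKM, Ltb with 1.19 ± 0.207 RPKM, Tnf with 0.499 ± 0.238 RPKM, Tnfsf14 with 0.276 ± 0.0493 RPKM and Lta with 0.0886 ± 0.0477 RPKM. Of these neighbours, Tnf and Tnfsf14 overlapped and the others did not.

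In the spleen under isotype, Ltb led with 146.5 ± 10.9 RPKM, first among 18 ligand genes of the family and above 99.0% of the 16808 genes ranked. Tnfrsf1b followed with 24.8 ± 0.752 RPKM, Tnfrsf14 with 23.8 ± 4.95 RPKM and Tnfrsf1a with 20.1 ± 1.30 RPKM; Tnfrsf14 overlapped both of its neighbours. Lta came next at 11.6 ± 0.920 RPKM, then Ltbr at 8.59 ± 0.989 RPKM, with no overlap between them. Tnf at 4.66 ± 0.774 RPKM and Tnfsf14 at 4.19 ± 0.410 RPKM overlapped at the bottom of the order. Ltbr, the receptor that AC H6 binds, had rank 10 among the 28 family receptors in the spleen.

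**Figure D1:**
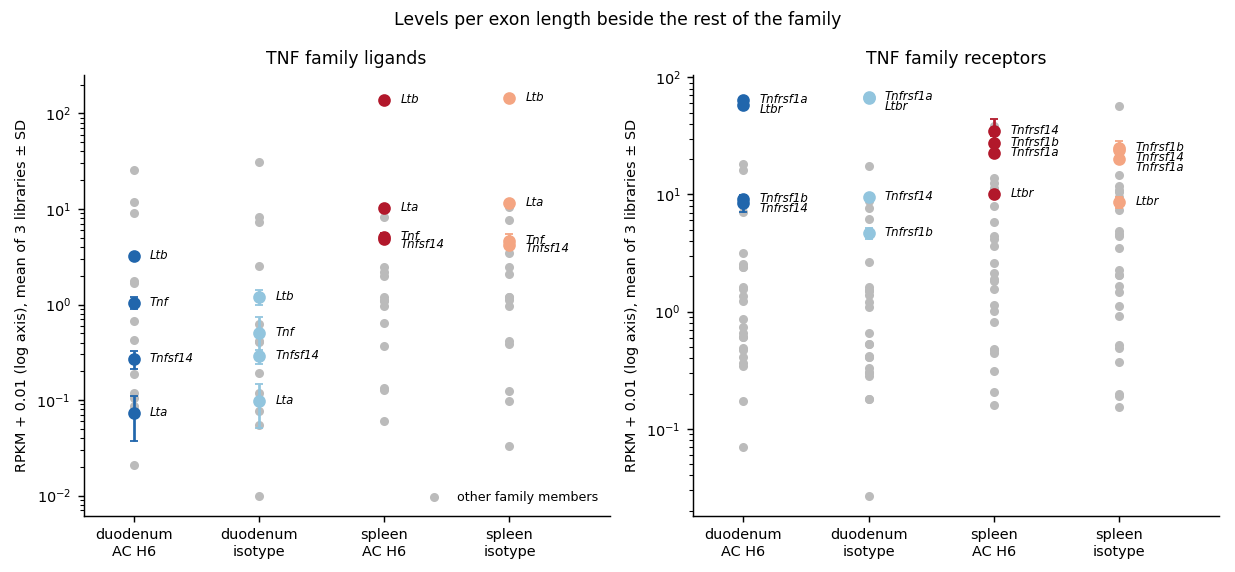
Mean RPKM + 0.01 (log axis) of the TNF family ligands (left) and receptors (right) in the 4 groups, with coloured points for the 8 genes (bars, SD of 3 libraries) and grey points for the rest of the family. Ltb leads the ligands in the spleen at 139.8 RPKM under AC H6 and 146.5 RPKM under isotype, while Tnfrsf1a and Ltbr lead the receptors in the duodenum.

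In the duodenum after AC H6 the order was Tnfrsf1a (63.7 ± 2.24 RPKM), Ltbr (58.2 ± 1.98 RPKM), Tnfrsf1b (9.07 ± 0.698 RPKM), Tnfrsf14 (8.46 ± 1.36 RPKM), Ltb (3.24 ± 0.202 RPKM), Tnf (1.04 ± 0.155 RPKM), Tnfsf14 (0.259 ± 0.0583 RPKM) and Lta (0.0631 ± 0.0360 RPKM). There only Tnfrsf1b and Tnfrsf14 overlapped among neighbours. Among the 28 family receptors of the duodenum, Tnfrsf1b had rank 5 after AC H6 and rank 8 under isotype. In the spleen after AC H6 the order was Ltb (139.8 ± 8.59 RPKM), Tnfrsf14 (35.0 ± 9.34 RPKM), Tnfrsf1b (27.7 ± 3.61 RPKM), Tnfrsf1a (22.7 ± 0.870 RPKM), Lta (10.1 ± 0.491 RPKM), Ltbr (9.99 ± 0.377 RPKM), Tnf (5.05 ± 0.537 RPKM) and Tnfsf14 (4.86 ± 0.343 RPKM). Tnfrsf14 overlapped Tnfrsf1b, Lta overlapped Ltbr, and Tnf overlapped Tnfsf14. The order rests on the exon lengths used, and with the length of the longest transcript 13 of the 32 group means moved by more than their SD.

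The test of duodenum over spleen in isotype libraries put all 8 genes past the threshold, an edgeR quasi-likelihood adjusted p under 0.05 over all genes tested. That is read against 86% of the 16029 genes tested, 42.2% higher and 43.8% lower in the duodenum. Ltbr was higher by 2.93 ± 0.08 on the log2 scale (± standard error), 7.61-fold, and Tnfrsf1a by 1.73 ± 0.06, 3.33-fold. The other 6 were lower in the duodenum: Lta with a log2 fold change of -7.005 ± 0.214, Ltb with -6.96 ± 0.12, Tnfsf14 with -3.96 ± 0.17, Tnf with -3.19 ± 0.28, Tnfrsf1b with -2.43 ± 0.08 and Tnfrsf14 with -1.34 ± 0.15. The members' median was -2.81, beside -0.05 for all genes. Every one of these calls held in each of 6 alternatives and each of 6 fits without 1 library. In whole tissue, fewer cells of a type and less RNA per cell cannot be told apart.

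In the duodenum after AC H6, Ltb rose 2.75-fold, Tnf 2.01-fold and Tnfrsf1b 1.96-fold, and no member was called lower. Lta did not pass the filter on low counts, so 7 genes were tested and 3 were called. Of the 15667 genes tested 34.6% were called, 18.5% higher and 16.1% lower. The median log2 fold change of the 7 was -0.05, beside 0.01 for all genes tested. DESeq2 called 4 of the 7, and 32.6% of all genes.

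Ltb, the membrane anchor of lymphotoxin, had 5.07, 4.56 and 5.10 CPM in duodenum AC H6 libraries 1 to 3, against 1.57, 1.67 and 2.16 CPM in duodenum isotype libraries 1 to 3. These rest on 169, 126 and 188 counts under AC H6 and on 31, 48 and 55 counts under isotype. Every AC H6 library lay above every isotype library, with a clear gap between the groups. The log2 fold change was 1.46 ± 0.15 (edgeR adjusted p = 3.28e-04), and it stayed called in all 6 fits without 1 library, between 1.39 and 1.61.

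Tnfrsf1b, TNF receptor 2, had 32.4, 34.0 and 37.6 CPM in duodenum AC H6 libraries, against 15.5, 19.2 and 18.9 CPM in duodenum isotype libraries. The groups did not overlap, with each AC H6 library well above each isotype library. The log2 fold change was 0.97 ± 0.09 (edgeR adjusted p = 1.67e-04), and without 1 library at a time it ran from 0.89 to 1.02, called in all 6 fits. The ratio of TNF receptor 1 to TNF receptor 2 transcripts in RPKM was 7.06 ± 0.728 in duodenum AC H6 libraries and 14.8 ± 2.45 in duodenum isotype libraries (SD, n = 3), with no overlap.

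Tnf had 1.53, 1.99 and 1.57 CPM in duodenum AC H6 libraries, against 0.406, 1.18 and 0.864 CPM in duodenum isotype libraries. The counts behind them were 51, 55 and 58 under AC H6 and 8, 34 and 22 under isotype. All AC H6 libraries were higher, but isotype library 1 stood well below its own group. The log2 fold change was 1.01 ± 0.30 (edgeR adjusted p = 0.0331). The call was lost in 5 of 6 fits without 1 library (edgeR adjusted p from 0.0587 to 0.105), and it held only without isotype library 2 (log2 fold change 1.37, adjusted p = 0.0154).

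Ltbr, the receptor itself, had 142, 134 and 134 CPM in duodenum AC H6 libraries, against 158, 161 and 152 CPM in duodenum isotype libraries. All AC H6 libraries were lower, by a small margin. Its log2 fold change of -0.18 ± 0.06 did not pass edgeR's test (adjusted p = 0.0531), but did under DESeq2 (adjusted p = 0.0202), with DESeq2's size factors in edgeR (adjusted p = 0.0473) and with an acinar score as a covariate (adjusted p = 0.0328). Of the 7 genes tested, 4 had groups that did not overlap (Ltb, Tnf and Tnfrsf1b higher, Ltbr lower), against 49.6% of all genes tested. In the same libraries 7 enterocyte markers summed to 25280 to 26900 CPM under AC H6 and 28620 to 30030 CPM under isotype. EdgeR called 5 of these 7 markers lower and 1 higher, where it called 16.1% of all genes lower. Whether the share of enterocytes had a part in the Ltbr values was not tested.

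The other members showed overlapping groups in the duodenum. Tnfrsf1a had 172, 161 and 162 CPM under AC H6 and 185, 176 and 169 CPM under isotype, a log2 fold change of -0.08 ± 0.07 (edgeR adjusted p = 0.385). Tnfrsf14 had 11.01, 14.4 and 11.1 CPM under AC H6 and 14.2, 13.9 and 13.2 CPM under isotype, a log2 fold change of -0.16 ± 0.12 (edgeR adjusted p = 0.317). AC H6 library 2 was the highest of all 6 for Tnfrsf14. Without it the log2 fold change was -0.30 and was called (edgeR adjusted p = 0.0415).

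Tnfsf14, the LIGHT gene, had 0.360, 0.506 and 0.570 CPM under AC H6 and 0.610, 0.487 and 0.432 CPM under isotype, with 11 to 21 counts per library. Its log2 fold change was -0.05 ± 0.28 (edgeR adjusted p = 0.932), and no difference was detectable at this depth. Lta had 3, 1 and 5 counts in duodenum AC H6 libraries and 2, 2 and 5 counts in duodenum isotype libraries, 9 in each group. Lta, the partner that Ltb needs for its membrane trimer, was thus at the edge of detection in both groups. It was left out by the filter on low counts; without the filter its log2 fold change was -0.38 ± 0.69 (edgeR adjusted p = 0.730), and in 1 fit of all 12 libraries -0.40 ± 0.49 (edgeR adjusted p = 0.678).

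**Figure D2:**
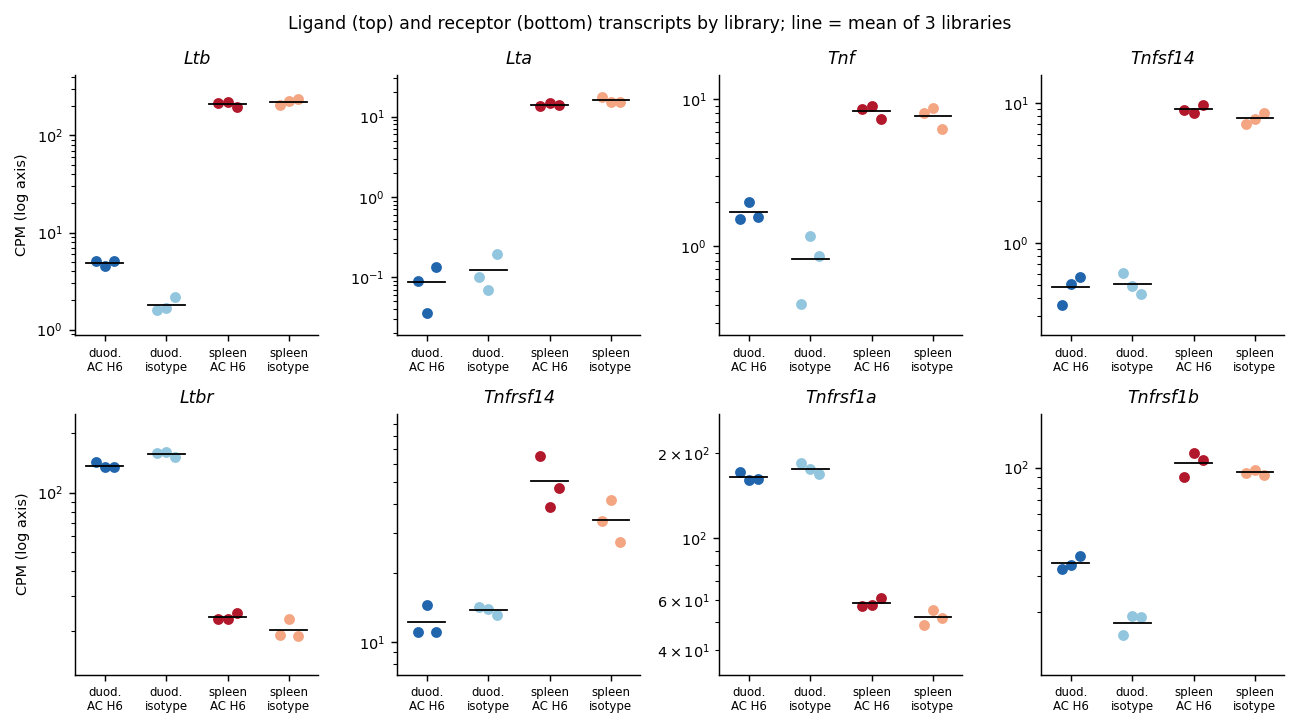
CPM (log axis) of each of the 8 genes in each library, with ligands in the upper row and receptors in the lower row; the line is the mean of 3 libraries. In the duodenum every AC H6 library lies above every isotype library for Ltb, Tnf and Tnfrsf1b, and below for Ltbr; in the spleen the groups overlap for 5 genes, and lie apart by small margins for Ltbr, Tnfrsf1a (AC H6 higher) and Lta (AC H6 lower).

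Markers of immune cells moved in the same duodenum libraries, where 18.5% of all genes tested were called higher. The 8 T cell markers summed to 51.2 to 54.5 CPM in AC H6 libraries and 41.4 to 45.0 CPM in isotype libraries, with 3 of 8 called higher (2 by DESeq2). The 8 B cell markers summed to 11.7 to 13.4 CPM under AC H6 and 9.86 to 11.5 CPM under isotype, with none of the 7 tested called by edgeR (1 at an unadjusted p under 0.05, and none by DESeq2). The 8 monocyte and macrophage markers summed to 357 to 419 CPM under AC H6 and 231 to 236 CPM under isotype, with all 8 called higher. Neutrophil markers summed to 94.3 to 112 CPM under AC H6 and 50.5 to 55.8 CPM under isotype, with 5 of 7 tested called higher (4 by DESeq2). Most of that sum was Mmp9 (mean 64.55 CPM under AC H6 and 26.88 CPM under isotype) and Ltf (30.88 and 23.15 CPM, not called). Each other neutrophil marker had a mean of 4.71 CPM or less in the duodenum, so the sum mainly follows Mmp9 and Ltf.

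Set against these, Ltb was 9.32 ± 0.609 CPM per 100 CPM of T cell markers in duodenum AC H6 libraries and 4.15 ± 0.561 in duodenum isotype libraries, with no overlap. Against B and T cell markers together it was 7.51 ± 0.380 under AC H6 and 3.34 ± 0.517 under isotype. The ratio of Ltb to its lymphocyte markers therefore differed between the groups as well. Tnfrsf1b was 9.11 ± 0.356 CPM per 100 CPM of monocyte and macrophage markers under AC H6 and 7.66 ± 0.854 under isotype, also with no overlap, a smaller gap than in Tnfrsf1b alone (SD, n = 3 in each). Most of that marker sum was Lyz2 (mean 199.7 CPM under AC H6 and 126.3 CPM under isotype) and Csf1r (101.2 and 63.8 CPM), so the ratio mainly follows them. Ccr2 (11.9 and 1.76 CPM), Fcgr1 (7.38 and 3.31 CPM) and Cd68 (17.6 and 8.53 CPM) rose by more than Tnfrsf1b. The other markers of the list rose by less.

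With the mean log2 CPM of the B and T cell lists as a covariate, none of the 3 genes was called by edgeR in the duodenum. Ltb then had a log2 fold change of 1.39 ± 0.46 (adjusted p = 0.225), Tnfrsf1b 0.39 ± 0.19 (adjusted p = 0.376) and Tnf -0.24 ± 0.80 (adjusted p = 0.914). That score was 1.02 to 1.15 in AC H6 libraries and 0.66 to 0.82 in isotype libraries; it did not overlap between the groups, so in that fit score and treatment cannot be told apart. With a score of pancreatic acinar markers, which varied within both groups, all 3 stayed called (Ltb 1.46, Tnfrsf1b 0.93, Tnf 0.95).

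**Figure D3:**
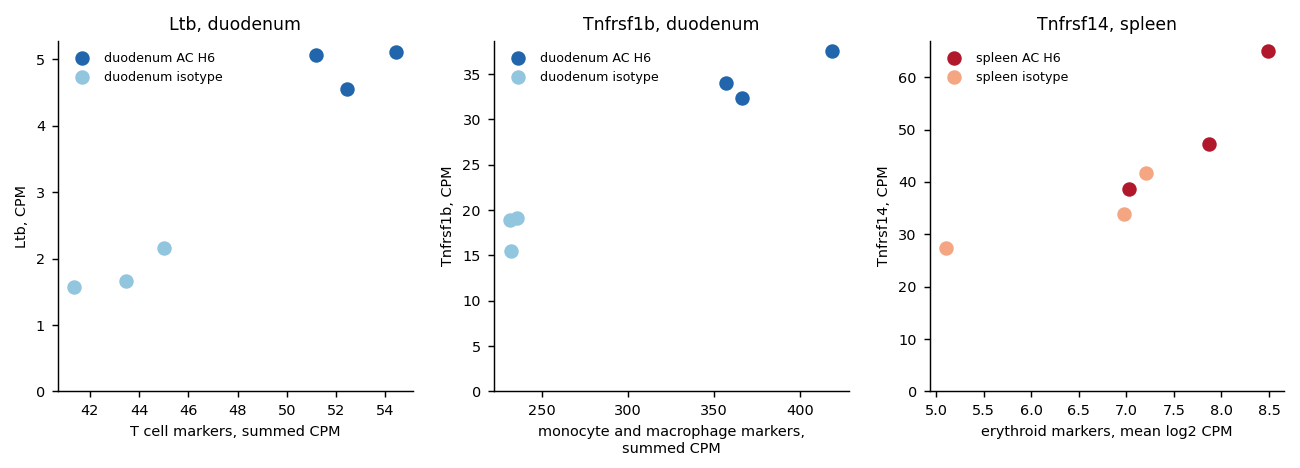
CPM of Ltb in duodenum libraries against the summed CPM of 8 T cell markers (left), of Tnfrsf1b in duodenum libraries against the summed CPM of 8 monocyte and macrophage markers (centre) and of Tnfrsf14 in spleen libraries against the mean log2 CPM of 8 erythroid markers (right). Each point is 1 library; in the duodenum both axes separate AC H6 from isotype, and in the spleen Tnfrsf14 follows the same order as the erythroid score.

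In the spleen no member was called by edgeR after AC H6, in a comparison that called 3.98% of 15270 genes. At an unadjusted p under 0.05 there were 3 (Ltbr, Tnfrsf14 and Tnfrsf1a), and DESeq2 called 1, Tnfrsf14, while calling 10.1% of all genes it tested. The median log2 fold change of the 8 was 0.17, beside -9e-04 for all genes. Groups did not overlap for 3 of the 8 genes, against 32.7% of all genes tested.

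Ltbr had 23.0, 23.0 and 24.5 CPM in spleen AC H6 libraries, against 19.1, 22.9 and 18.7 CPM in spleen isotype libraries. The AC H6 libraries were all higher, although isotype library 2 came close to the lowest of them. The log2 fold change was 0.21 ± 0.09 (edgeR adjusted p = 0.165). Tnfrsf1a had 57.3, 57.6 and 61.4 CPM in spleen AC H6 libraries, against 48.8, 55.6 and 51.9 CPM in spleen isotype libraries, again with no overlap and a log2 fold change of 0.17 ± 0.06 (edgeR adjusted p = 0.138).

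Lta, by contrast, had 13.4, 14.7 and 13.9 CPM in spleen AC H6 libraries, all below the 17.5, 15.3 and 15.2 CPM of the spleen isotype libraries (log2 fold change -0.18 ± 0.08, edgeR adjusted p = 0.194). Ltb had 215, 223 and 198 CPM in spleen AC H6 libraries, against 204, 226 and 236 CPM in spleen isotype libraries. These overlapped, with a log2 fold change of -0.07 ± 0.08 (edgeR adjusted p = 0.603). In the same libraries T cell markers summed to 389 to 436 CPM under AC H6 and 479 to 554 CPM under isotype, with 3 of 8 called lower (7 at an unadjusted p under 0.05, and 6 by DESeq2), and B cell markers to 2326 to 2663 CPM under AC H6 and 2871 to 3145 CPM under isotype, with 1 of 8 called lower (7 at an unadjusted p under 0.05, and 6 by DESeq2). Ltb per 100 CPM of T cell markers was 51.1 ± 0.199 under AC H6 and 43.4 ± 1.41 under isotype (SD, n = 3), with no overlap. The part of cell composition in these values was not tested further.

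Tnfrsf14, the HVEM gene, was the member with the widest spread in the spleen. It had 65.1, 38.7 and 47.3 CPM in spleen AC H6 libraries 1 to 3, against 33.8, 41.6 and 27.4 CPM in spleen isotype libraries 1 to 3. The groups overlapped, since AC H6 library 2 lay below isotype library 2. The log2 fold change of 0.56 ± 0.21 did not pass edgeR's test (adjusted p = 0.148) but did pass DESeq2's (adjusted p = 0.0271).

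Red cell transcripts varied in the same order. The mean log2 CPM of 8 erythroid markers was 8.49, 7.02 and 7.87 in spleen AC H6 libraries 1 to 3 and 6.97, 7.20 and 5.10 in spleen isotype libraries 1 to 3, so the 6 libraries stood in the same order by this score and by Tnfrsf14. With the score as a covariate, the log2 fold change of Tnfrsf14 was 0.09 ± 0.12 (edgeR adjusted p = 0.779).

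Tnf had 8.57, 8.96 and 7.28 CPM in spleen AC H6 libraries, against 7.97, 8.70 and 6.23 CPM in spleen isotype libraries, a log2 fold change of 0.12 ± 0.14 (edgeR adjusted p = 0.604). Tnfsf14 had 8.89, 8.40 and 9.65 CPM in spleen AC H6 libraries, against 7.01, 7.68 and 8.52 CPM in spleen isotype libraries, a log2 fold change of 0.21 ± 0.10 (edgeR adjusted p = 0.222). Tnfrsf1b had 90.5, 117.5 and 109 CPM in spleen AC H6 libraries, against 94.2, 97.9 and 92.2 CPM in spleen isotype libraries, a log2 fold change of 0.16 ± 0.10 (edgeR adjusted p = 0.312). For all 3 genes the groups overlapped. The spleen AC H6 libraries were also the ones high in neutrophil markers, which summed to 1406 to 2001 CPM against 474 to 717.5 CPM under isotype. EdgeR called all 8 higher. Without 1 library at a time 2 of the 8, Csf3r and Mmp8, stayed called in all 6 fits. None did under the replicate block (edgeR adjusted p of 0.0599 or more), which left only 1 gene called in the whole spleen comparison.

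**Figure D4:**
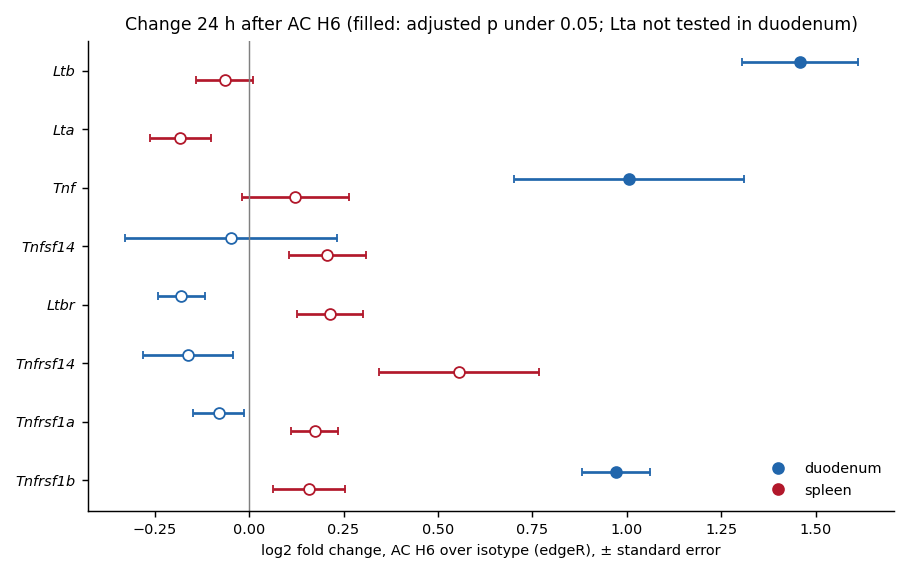
Log2 fold change of AC H6 over isotype (edgeR, ± standard error) for each gene in duodenum (blue, upper point of each pair) and spleen (red, lower point); filled points have an adjusted p under 0.05. Ltb at 1.46, Tnf at 1.01 and Tnfrsf1b at 0.97 stand apart in the duodenum, and all spleen points are open.

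The response was compared between the tissues in 1 fit of all 12 libraries, as the difference of the log2 fold change in the duodenum over that in the spleen. Of the 8 genes 4 were called, 2 in each direction, against 20% of the 16655 genes tested (10.9% higher and 9.13% lower). The response of Ltb was higher in the duodenum by 1.504 ± 0.143 (edgeR adjusted p = 4.11e-05) and that of Tnfrsf1b by 0.79 ± 0.14 (edgeR adjusted p = 0.00278). Both were called in each of 12 fits without 1 library.

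For the receptors Ltbr and Tnfrsf1a the difference had the other sign: -0.41 ± 0.10 for Ltbr (edgeR adjusted p = 0.0167) and -0.27 ± 0.09 for Tnfrsf1a (edgeR adjusted p = 0.0484). Neither gene was called within a tissue by edgeR. The call of Ltbr was lost in 3 of 12 fits without 1 library (spleen isotype library 1, spleen isotype library 3 or spleen AC H6 library 3; adjusted p from 0.0550 to 0.0630). That of Tnfrsf1a was lost in 11 of 12, under the replicate block (adjusted p = 0.0699), without a filter on low counts (adjusted p = 0.0706) and without the most abundant transcripts (adjusted p = 0.110). Tnf (0.86 ± 0.34, adjusted p = 0.0976), Tnfrsf14 (-0.74 ± 0.27, adjusted p = 0.0795), Tnfsf14 (-0.28 ± 0.27, adjusted p = 0.643) and Lta (-0.21 ± 0.49, adjusted p = 0.835) did not pass edgeR's test of the difference. DESeq2 called 6 of the 8, adding Tnf (adjusted p = 0.0436) and Tnfrsf14 (adjusted p = 0.0205), and 21.5% of all genes.

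The genes around this group were read from 8 lists, whose counts are to be read against the share of all genes called: 18.5% higher and 16.1% lower in the duodenum, 3.98% either way in the spleen. Spleen calls in these lists were fragile. Of the 7 genes called there (Cxcl10, Mmp9, Il1b, Tnfrsf13b, Tnfrsf13c, Tnfrsf21 and Tnfrsf26), none stayed called in all 6 fits without 1 library. DESeq2 called all 7. None stayed called under the replicate block (edgeR adjusted p from 0.0599 to 0.123). That block left only 1 gene called in the whole spleen comparison, so it cannot tell fragile calls from others. In the duodenum, 9 of the 11 tested chemokine, adhesion and cytokine genes known as LTbR targets rose and 1 fell, with a median log2 fold change of 2.12. Icam1, an adhesion molecule for leukocytes, rose by 2.38 ± 0.06; Cxcl13, the chemokine that draws B cells to follicles, by 4.03 ± 0.16; Cxcl10, an interferon-induced chemokine, by 2.65 ± 0.12; and Vcam1, an adhesion molecule of stroma and endothelium, by 1.22 ± 0.06 (edgeR adjusted p of 6.78e-06 or less for each). In the spleen 1 of 10 rose, Cxcl10 with 0.76 ± 0.09 (edgeR adjusted p = 0.0149). In duodenum over spleen under isotype, 9 of 11 were lower, where 43.8% of all genes were lower and 86% differed.

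Among NF-kB subunits and inhibitors, 8 of 10 rose in the duodenum and 1 fell, with a median of 0.50. Nfkb2, the precursor protein of the alternative pathway, rose by 2.66 ± 0.08, its partner Relb by 1.06 ± 0.09, and the inhibitor genes Nfkbie by 1.74 ± 0.10 and Nfkbia by 1.33 ± 0.12. Of the receptor adaptors and kinases, 7 of 22 rose and 2 fell, with a median of 0.04, a share called not far from the 34.6% of all genes. Map3k14, the NF-kB inducing kinase of the alternative pathway, rose by 1.59 ± 0.07, the TNF receptor adaptors Traf3 by 1.02 ± 0.08 and Traf2 by 0.93 ± 0.05, and the ubiquitin ligase gene Birc3 by 0.88 ± 0.07. None of the 10 and none of the 22 was called in the spleen by edgeR (1 and 3 at an unadjusted p under 0.05, and 0 and 1 by DESeq2); the smallest p were those of Rel (-0.29 ± 0.12, adjusted p = 0.173) and Map3k14 (-0.26 ± 0.07, adjusted p = 0.0731).

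Of the other TNF family receptors, 11 of 23 rose in the duodenum and none was called lower by edgeR (12 at an unadjusted p under 0.05, and 9 called by DESeq2), with a median of 0.55. Tnfrsf11a, the receptor RANK, rose by 0.90 ± 0.06, Relt by 1.27 ± 0.16, the ectodysplasin receptor gene Eda2r by 1.52 ± 0.22 and Tnfrsf19 by 0.66 ± 0.11. In the spleen 1 of 24 rose, Tnfrsf21 (death receptor 6) with 0.39 ± 0.07, and 3 fell: Tnfrsf13c, the BAFF receptor of B cells, with -0.56 ± 0.10, Tnfrsf26 with -0.36 ± 0.06 and Tnfrsf13b (TACI) with -0.34 ± 0.07 (edgeR adjusted p from 0.0317 to 0.0486). Tnfrsf11a also stands in the list of M cell and follicle epithelium markers, of which edgeR called all 5 higher in the duodenum and DESeq2 4. The exception was Gp2, which edgeR called in 2 of 6 fits without 1 library. It ran from 33.92 to 100.8 CPM in duodenum AC H6 libraries. The same libraries ran from 4.05 to 6038 CPM in summed pancreatic acinar markers, and any part of pancreas RNA in the Gp2 values was not tested.

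Of the other ligands, 4 of 10 rose in the duodenum and 2 fell, with a median of 0.21 (5 called by DESeq2). Tnfsf11, the RANK ligand, rose by 2.66 ± 0.32, Tnfsf15 (TL1A) by 2.15 ± 0.19 and Tnfsf10 (TRAIL) by 0.71 ± 0.08, while Tnfsf13b, the B cell survival factor BAFF, fell by 0.57 on the log2 scale. In the spleen none of 12 was called by edgeR (2 at an unadjusted p under 0.05, and none by DESeq2), Tnfsf18 having the smallest p (0.70 ± 0.21, adjusted p = 0.101). Of the HVEM partners, Btla, an inhibitory receptor of lymphocytes, rose in the duodenum by 0.67 ± 0.17 (edgeR adjusted p = 0.0157), and Cd160 had -0.08 ± 0.16; in the spleen edgeR called neither (1 at an unadjusted p under 0.05, none by DESeq2), Btla with -0.20 ± 0.07 (adjusted p = 0.136).

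TNF target genes rose in 9 of 15 and fell in 1 in the duodenum, with a median of 0.88. Icam1, Birc3, Nfkbia and the gelatinase gene Mmp9 (1.29 ± 0.11) had the smallest p. Of these, Icam1, Birc3 and Nfkbia stand in the lists above too, and Mmp9 in the neutrophil list. In the spleen 2 of 13 rose, Mmp9 (0.96 ± 0.11) and the interleukin 1 beta gene Il1b (0.58 ± 0.12). Of 6 genes on the list of TNF processing, 3 rose by small amounts in the duodenum. Adam17, the protease that sheds TNF and its receptors, rose by 0.25 ± 0.04 and its trafficking partner Rhbdf2 by 0.39 ± 0.04. Sppl2a (under its older symbol 2010106G01Rik) rose by 0.37 ± 0.07. In the spleen none of the 6 was called by edgeR (1 at an unadjusted p under 0.05, none by DESeq2), and Sppl2b (under its older symbol 3110056O03Rik) had the smallest p (0.73 ± 0.30, adjusted p = 0.167). Named outside the rule, after their values were seen, the other genes that fell in these duodenum lists were Tnfsf13 (-0.26), Tradd (-0.17), Chuk (-0.46), Nfkbiz (-0.81) and Sod2 (-0.35).

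**Figure D5:**
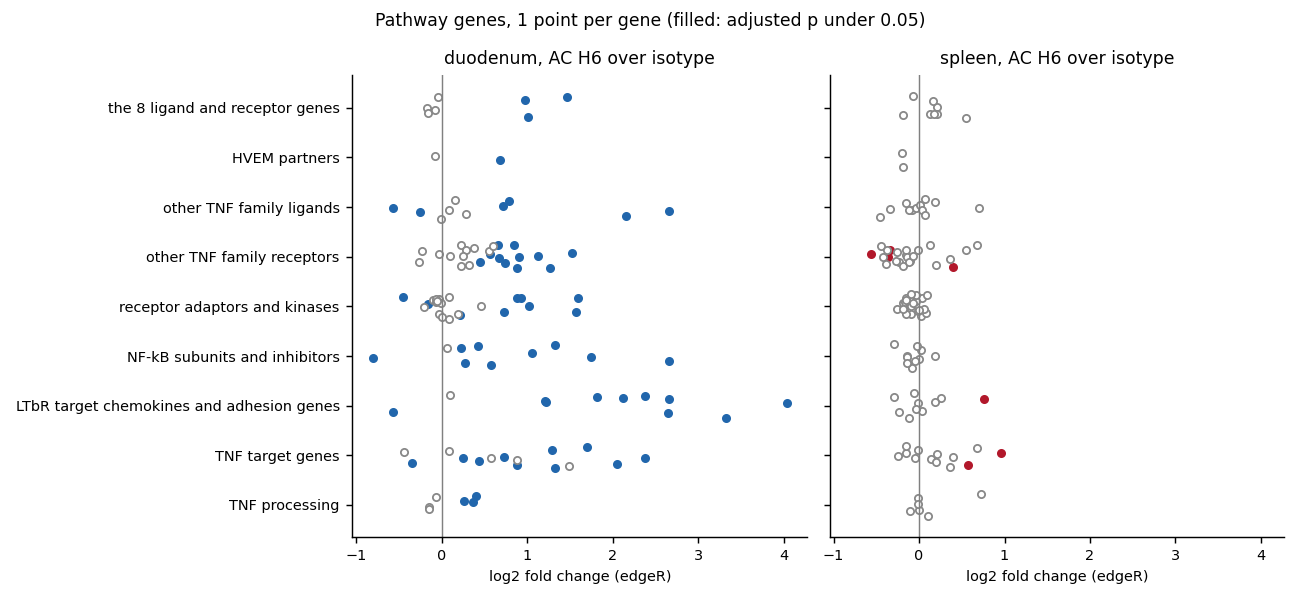
Log2 fold change of AC H6 over isotype (edgeR) in duodenum (left) and spleen (right) for the 8 genes and for 8 lists of related genes, 1 point per gene; filled points have an adjusted p under 0.05, and a gene in several lists is drawn in each. In the duodenum 9 of 11 LTbR targets and 8 of 10 NF-kB genes are filled to the right of 0, and in the spleen nearly all points are open.

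The genes most like each member were those with the highest Pearson r over the 12 libraries, on log2 CPM with each tissue's mean subtracted, given as a description. For Ltb they were Pitpnc1 (r = 0.990), Parvg (0.989) and Il2rg (0.988), and for Tnfrsf1b Nfe2l1 (0.979), Mctp1 (0.978) and Whrn (0.976). For Tnfrsf14 they were Atg4a (0.961), Snx15 (0.956) and Naprt1 (0.954), for Tnfrsf1a Mocos (0.958), Rilp (0.922) and Ufsp2 (0.918), and for Tnf Sec11c (0.957), Tchp (0.940) and Wbp5 (0.928). For Ltbr they were Fam162a (0.944), Ces2e (0.934) and 2810410L24Rik (0.932), for Lta Leng9 (0.927), Pmp22 (0.879) and Ugcg (0.875), and for Tnfsf14 Dimt1 (0.801), Gm10778 (0.759) and 4932416H05Rik (0.748). The libraries share tissue and treatment, and for Lta and Tnfsf14 the duodenum libraries add little beyond counting noise.

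Genes beside the members on the chromosome were read in the same fits. Scnn1a, between Ltbr and Tnfrsf1a, was higher in the spleen after AC H6 (3.91 ± 0.376 CPM under AC H6 and 2.37 ± 0.371 CPM under isotype). Its log2 fold change was 0.73 ± 0.15 (edgeR adjusted p = 0.0448), a call lost in all 6 fits without 1 library. It was also lost under the replicate block (edgeR adjusted p = 0.122), which left only 1 spleen gene called. It was not called in the duodenum (-0.09 ± 0.11, adjusted p = 0.554). Plekhg6, next to Tnfrsf1a, was called in neither tissue (-0.11 ± 0.07 in duodenum, -0.17 ± 0.34 in spleen). Lst1, the leukocyte gene 5999 bases from Ltb, rose in the duodenum by 0.72 ± 0.20 (edgeR adjusted p = 0.0243), to 3.65 ± 0.463 CPM under AC H6, against 2.27 ± 0.573 CPM under isotype; this call held in 2 of 6 fits without 1 library.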

How the data were processed

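Each of the 4 groups, set by the labels of tissue and treatment, has 3 RNA libraries. The authors deposited raw counts per gene, 1 file a library; per the file headers these counts keep reads that match several places. The submitters' processing notes name bcl2fastq 2.19, Trimmomatic, STAR 2.3, edgeR and the build mm10. How reads were assigned to genes is not given in the sources used here. Per the labels' protocols, total RNA went into a TruSeq kit.

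TMM factors, CPM and quasi-likelihood F-tests after filterByExpr came from edgeR 4.0.16 in R 4.3.3 (limma 3.58.1). AC H6 was compared with isotype on the 6 libraries of a tissue, the tissues were compared on the 6 isotype libraries and the interaction was fitted on all 12. A gene was called where its Benjamini-Hochberg adjusted p, over every gene tested, was under 0.05. Standard errors are the log2 fold change over the square root of F, which is unstable near 0. RPKM uses the union of GENCODE M21 exons, matched by symbol.

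The members and lists were chosen with earlier results of these data known. The text names all 8 members, up to 4 called genes of smallest p in each list and comparison (or the 1 of smallest p), the 3 genes most like each member (prior count 2, mean log2 CPM of at least 1) and adjoining genes. The 8 pathway and 13 marker lists hold 191 further genes, all found, 3 by another name. Alternatives were DESeq2 size factors, no filter, DESeq2 1.42.0, the replicate block, removal of haemoglobin, Rn45s, Lars2 and amylase 2 genes, 1 fit of all libraries, marker scores as covariates, and each library left out. Chi-square values per degree of freedom for 2 libraries of the same group were between 24.6 and 243.4, so no library repeated another. The fits were tested on simulated data.

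Replicate numbers came from the sample titles. Same-numbered libraries of the 2 treatments deviated with correlations of 0.265, -0.13 and -0.0304 in spleen and 0.401, 0.243 and -0.2 in duodenum. Between the tissues under isotype the correlations were 0.186, 0.346 and 0.108. These values do not settle whether equal numbers pair the libraries. The main fits, of the tissues and of the interaction too, used no pairing. Only the replicate block used the numbers.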

Additional observations from a re-analysis of the deposited data

Results flagged for a closer look

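The response to AC H6 differed between the tissues, by edgeR's test of the difference itself, for 4 of the 8 genes, against 20% of all genes tested. DESeq2 called 6, adding Tnf and Tnfrsf14, against 21.5% of all genes. The duodenum response exceeded the spleen response by 1.504 for Ltb and 0.79 for Tnfrsf1b on the log2 scale. It was below the spleen response for Ltbr (-0.41) and Tnfrsf1a (-0.27), with the fits in which those calls were lost given above.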

How the results depend on the processing

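Of the members' fold changes under all alternatives, 390 kept their direction and side of the threshold, 24 lost their call, 11 gained one and 9 changed sign. In the spleen DESeq2 called 1 member, where edgeR called none, and in the interaction 6 against 4. The count of all genes called in the spleen was 608 and is not stable: 1356 by DESeq2, 1390 in 1 fit of all 12 libraries, 226 with the erythroid score, 1 with the replicate block, and from 14 (without isotype library 1) to 1132 (without AC H6 library 2) leaving out 1 library. The replicate block changed no member's call except Tnfrsf1a in the interaction. In the duodenum, the B and T cell score as a covariate left 0 members and 203 genes called. Between 2 and 5 members, against 4 with all libraries, were called in the interaction without 1 library. The sign changed with the erythroid score for Ltb (0.011) and Tnf (-0.032) in spleen, and with the B and T cell score for Tnf (-0.24) and Tnfrsf1a (0.15) in duodenum. Leaving out 1 library, Tnf in spleen ran from -0.0073 to 0.237, Tnfsf14 in duodenum from -0.21 to 0.13 and Lta in the interaction from -0.67 to 0.33. Apart from Tnf in duodenum, none of these had been called. The causes of these shifts were not tested. With 3 libraries per group, and few counts of Lta and Tnfsf14 in the duodenum, small changes are not detectable.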
